A study of Mus musculus with 3 samples.

Results

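The genes described here belong to 7 solute carrier families that hold many of the amino acid transporters of the plasma membrane and of the lysosome. They were taken from the deposited gene tables by symbol, as the *Slc1a*, *Slc3a*, *Slc6a*, *Slc7a*, *Slc36a*, *Slc38a* and *Slc43a* genes, whatever their level. From the 17633 genes read in at least 1 library, 52 with such a symbol were taken, of which 7 were *Slc1*, 2 *Slc3*, 16 *Slc6*, 12 *Slc7*, 3 *Slc36*, 9 *Slc38* and 3 *Slc43* genes. Shares, sums and ranks are over these 52 and not over every gene of the families. The GENCODE M21 annotation holds 8 further genes of these families for which no library had a read, *Slc6a5*, *Slc6a16*, *Slc6a21*, *Slc7a12*, *Slc7a13*, *Slc7a15*, *Slc36a3* and *Slc38a11*, where 0 reads allow a true count of up to 3.

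RNA-seq was performed on endoderm, mesoderm and epiblast of ICR mouse embryos at E7.5, with 1 library per germ layer. The layers were separated by hand after enzyme treatment of the embryonic region, and the epiblast sample holds neuroectoderm together with primitive streak. RNA was pooled from a large number of embryos, so that each value is an average over embryos and over all cell types of a layer. With 1 library per layer there is no replicate check, every test compares libraries and not germ layers, and the intervals given cover counting error only. In bulk samples, fewer cells that express a gene and less RNA per cell cannot be told apart.

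Amino acid transporters differ in their substrates, in the ions that drive them and in whether they take up or exchange amino acids. The *Slc7* light chains are exchangers that reach the plasma membrane only when bound to a heavy chain, Slc3a2 (CD98 heavy chain) for most of them and Slc3a1 for the cystine carrier Slc7a9. The remaining *Slc7* carriers, the cationic amino acid transporters or CATs, work without a heavy chain. *Slc1* genes encode glutamate carriers and neutral amino acid exchangers, and *Slc38* genes sodium-coupled glutamine and alanine carriers and several lysosomal proteins. *Slc6* genes encode carriers for neurotransmitters, osmolytes and amino acids, and *Slc36* genes proton-coupled carriers. *Slc43* genes encode facilitative carriers of large neutral amino acids and a nucleobase carrier. In the early mouse embryo, visceral endoderm is the absorptive epithelium that covers the egg cylinder and passes nutrients to the cells beneath it.

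The libraries of endoderm, mesoderm and epiblast held 41.7 M, 40.8 M and 42.7 M reads on genes, and RPKM, the reads of a gene per kilobase of its length, scaled to the library's reads on genes, was used as deposited. Of 9 endoderm markers 8 were highest in the endoderm library, with *Gata6* the exception, and all 8 mesoderm markers were highest in mesoderm. Of 7 epiblast markers 4 were highest in epiblast and 3, *Fgf5*, *Cdh1* and *Epcam*, in endoderm. All 8 visceral endoderm markers were highest in endoderm, with 866575 reads in all there against 474 in mesoderm and 427 in epiblast. The list of extra-embryonic ectoderm and trophoblast had 1486 reads in endoderm and 17556 and 2870 in mesoderm and epiblast, with 79, 17190 and 2692 of them from *Hand1*, which is also a mesoderm marker. Without *Hand1* the list had 1407, 366 and 178, most of them in endoderm from *Esx1* (478, 4 and 9) and *Plac1* (886, 273 and 26), both called higher in endoderm than in either other library, while *Tpbpa*, *Prl2c2* and *Prl3d1* had none in any library. The lists of primitive erythroid cells and of maternal decidua had between 110 and 2773 reads per library, 2621 of the 2773 from *Bmp2*, with *Hba-x*, *Hbb-y* and *Prl8a2* at 0. The erythroid genes *Hbb-bh1* (0, 37 and 0 reads in endoderm, mesoderm and epiblast), *Alas2* (21, 120 and 43) and *Klf1* (8, 29 and 16) were highest in mesoderm. So were the decidua genes *Cryab* (27, 113 and 34), *Hoxa10* (2, 73 and 16) and *Hoxa11* (0, 26 and 0). *Gata1* (246, 184 and 51) and *Bmp2* were highest in endoderm, and *Dcn* and *Pgr* in epiblast.

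Amino acid transporters took 0.237% of the endoderm library's reads on genes, 0.149% of mesoderm's and 0.151% of epiblast's. RPKM>5 was reached in at least 1 library by 22 of the 52 genes. For 9 genes the highest RPKM lay between 1 and 5, and 21 did not exceed 1 in any library. Endoderm held the highest RPKM of 11 of the 22 genes, mesoderm of 6 and epiblast of 5. Among these 22 genes the widest ranges belonged to *Slc7a8*, *Slc7a9* and *Slc7a3*, each well expressed in a single library and near or below an RPKM of 1 in the others.

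**Figure D1:**
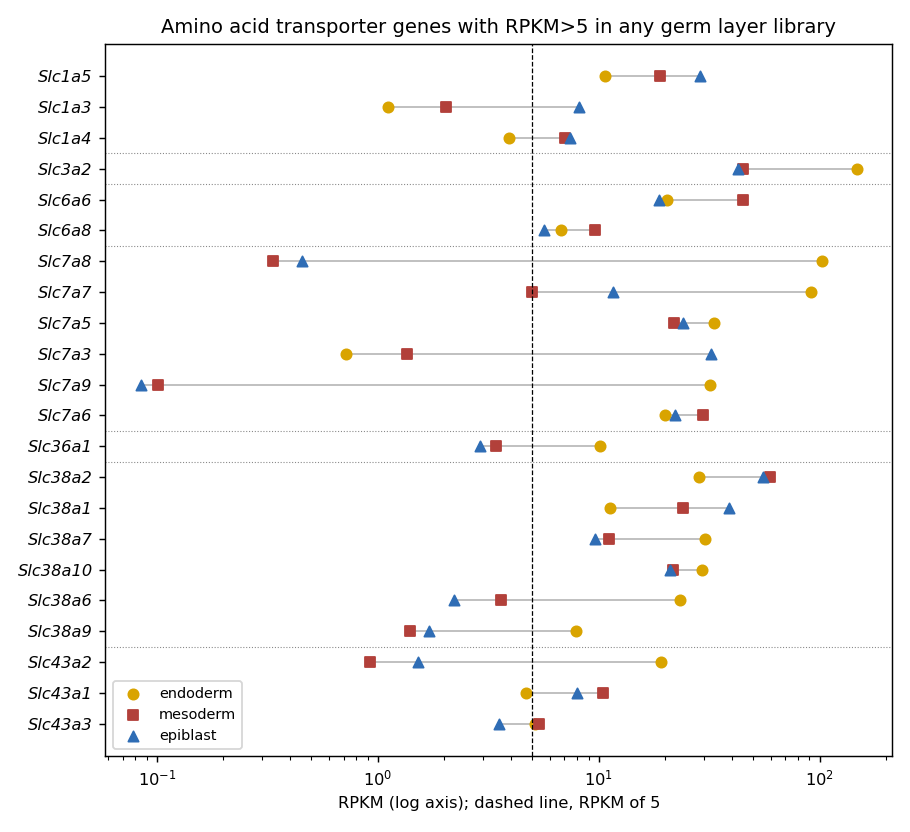
RPKM (log axis) of the 22 amino acid transporter genes with RPKM>5 in any library, with 1 point per germ layer library, dotted lines between families and a dashed line at an RPKM of 5. *Slc7a8* and *Slc7a9* lie above 30 in endoderm and below 1 in mesoderm and epiblast, and *Slc7a3* lies at 32.2 in epiblast alone.

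Genes were called different between libraries when 1 or both had RPKM>5, with Fold Change>2 and with FDR<0.001 in Audic and Claverie's exact test, which compares the reads of a gene in 2 libraries. Of the 51 transporter genes with a read in endoderm or mesoderm, 9 (17.6%) were called higher in endoderm, where 7.44% of all genes tested were. Another 4 (7.84%) were called higher in mesoderm, against 4.41% of all genes. Between endoderm and epiblast, 9 of 51 (17.6%) were called higher in endoderm and 4 (7.84%) higher in epiblast, against 8.02% and 4.58% of all genes. The fewest calls were made between mesoderm and epiblast. Only *Slc6a6* was called higher in mesoderm than in epiblast (1.96%, against 2.58% of all genes), and *Slc7a3*, *Slc1a3* and *Slc7a7* were called higher in epiblast (5.88%, against 2.45%).

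In all, 16 of the 52 genes (30.8%) were called in at least 1 pair, against 16.3% of all genes. The criteria were met against both other layers by 9 genes highest in endoderm (17.3%, against 5.78% of all genes), by 1 highest in mesoderm (1.92%, against 1.38%) and by 2 highest in epiblast (3.85%, against 1.17%). The 9 endoderm genes were *Slc3a2*, *Slc7a7*, *Slc7a8*, *Slc7a9*, *Slc36a1*, *Slc38a6*, *Slc38a7*, *Slc38a9* and *Slc43a2*, and both of their comparisons share the endoderm library. The median log2 ratio between endoderm and mesoderm was -0.13 over 50 transporter genes and -0.11 over 16150 genes, that between endoderm and epiblast was 0.12 over 49 and -0.11 over 16219, and that between mesoderm and epiblast was -0.07 over 47 and 0.00 over 15958.

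The 30 calls of a transporter gene in a pair of libraries rest on counting noise as the only source of spread. When edgeR's exact test was given a biological coefficient of variation assumed to be 0.2, it kept 21 of the 30 calls. The calls higher in mesoderm, of *Slc6a6*, *Slc38a1*, *Slc38a2* and *Slc43a1*, were all lost. At 0.4 it kept 8, namely *Slc7a8* and *Slc7a9* between endoderm and each other layer, *Slc7a3* between epiblast and each other layer, and *Slc7a7* and *Slc43a2* between endoderm and mesoderm.

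**Figure D2:**
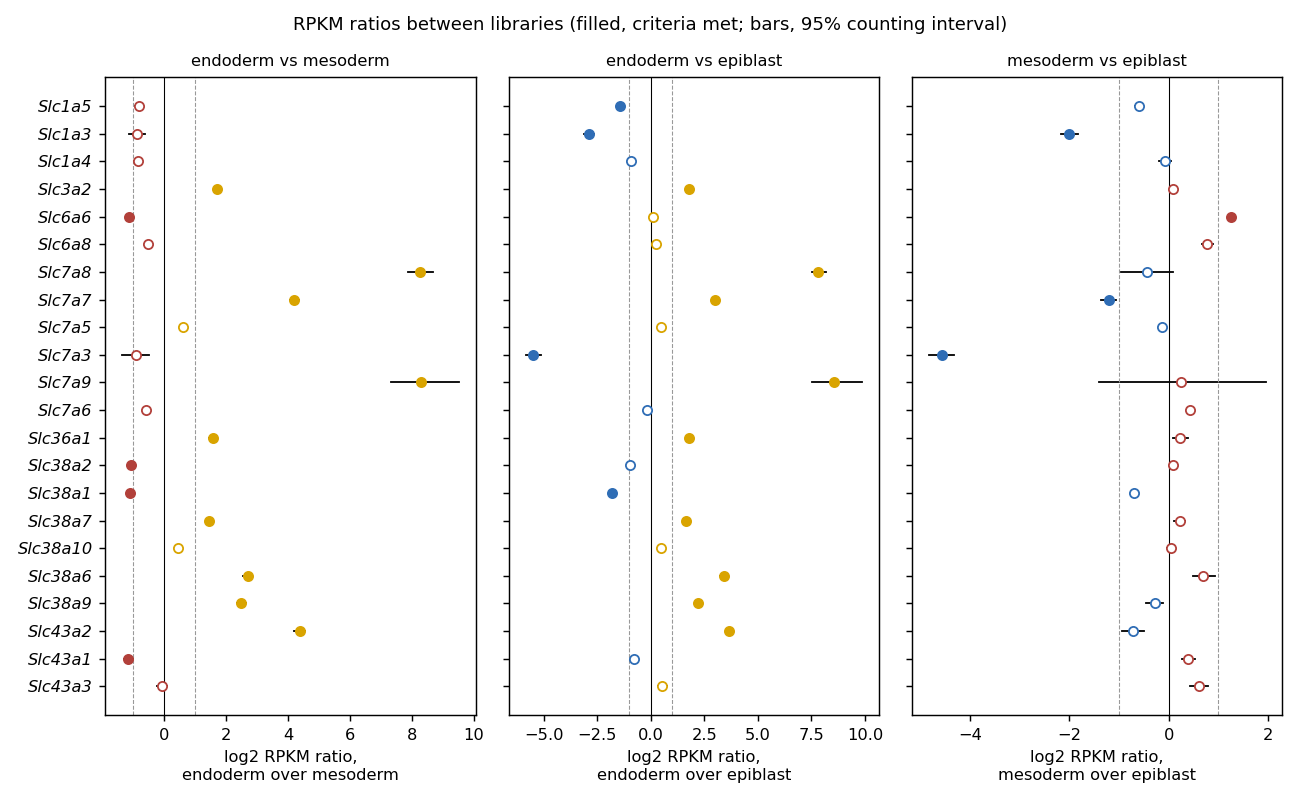
Log2 ratio of RPKM between libraries for the 22 genes with RPKM>5 in any library, with 95% counting intervals as bars, one panel per pair. Filled points met the criteria, dashed lines mark a fold of 2, and each point has the colour of the library with the higher value (endoderm yellow, mesoderm red, epiblast blue). The axes of the panels differ, and the 13, 13 and 4 filled points of the panels are the 30 calls.

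*Slc3a2* encodes the heavy chain shared by most heteromeric amino acid exchangers and lies on chromosome 19 (8706882 to 8723369, minus strand, GRCm38). It had an RPKM of 147.2 in endoderm against 45.1 in mesoderm and 42.8 in epiblast and was the most abundant of the 52 genes in endoderm. Endoderm was 3.26-fold higher than mesoderm (95% interval 3.16 to 3.36) and 3.44-fold higher than epiblast (3.33 to 3.55), and both pairs met the criteria. Mesoderm and epiblast differed by 1.05-fold and were not called.

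*Slc7a8*, the light chain LAT2 that exchanges neutral amino acids, lies on chromosome 14 (54722209 to 54781946, minus strand). It had 17447 reads in endoderm against 56 in mesoderm and 79 in epiblast, or RPKM values of 103.1, 0.337 and 0.455. The endoderm library was 306-fold higher than mesoderm (235 to 405) and 226-fold higher than epiblast (182 to 286). Reads covered 99.4% of the gene length in endoderm and, at far lower depth, 63.0% and 78.5% in mesoderm and epiblast.

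*Slc7a7* encodes y+LAT1, which exchanges cationic against neutral amino acids, and lies 304 kb from *Slc7a8* (54369442 to 54417780, minus strand). Its RPKM was 91.6 in endoderm against 4.997 in mesoderm and 11.6 in epiblast, which makes it the single transporter gene called in all 3 pairs. It was 18.3-fold higher in endoderm than in mesoderm (16.7 to 20.2), 7.92-fold higher than in epiblast (7.44 to 8.44) and 2.31-fold higher in epiblast than in mesoderm (2.08 to 2.58). Its exons overlap those of *Oxa1l* on the opposite strand, which had 3994, 5228 and 6106 reads in endoderm, mesoderm and epiblast. Whether reads of *Oxa1l* were counted for *Slc7a7* was not tested.

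The other 2 well expressed light chains of Slc3a2 varied little. *Slc7a5* (LAT1), the main exchanger of large neutral amino acids in dividing cells, had an RPKM of 33.3 in endoderm against 22.0 in mesoderm and 24.2 in epiblast. *Slc7a6* (y+LAT2), which has the exchange mode of y+LAT1, had 19.9, 29.7 and 22.1. Neither was called in any pair, with the largest fold at 1.52 (1.45 to 1.59) for *Slc7a5* and 1.49 (1.42 to 1.56) for *Slc7a6*, both between endoderm and mesoderm but in opposite directions.

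*Slc7a10* (Asc-1) and *Slc7a11* (xCT, the cystine and glutamate exchanger) stayed below an RPKM of 1 in every library. *Slc7a11* had 20 reads in the endoderm library, 29 in mesoderm and 82 in epiblast, and *Slc7a10* had 27, 54 and 40, with exons that overlap those of *Lrp3*. In all 3 libraries for *Slc7a10*, and in mesoderm and epiblast for *Slc7a11*, the covered share of the gene length was below the 5th percentile of genes with a like number of reads per kilobase.

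Summed over the 6 light chains of Slc3a2, RPKM was 248.3 in endoderm against 57.7 in mesoderm and 59.0 in epiblast. The ratio of this sum to the RPKM of *Slc3a2* was 1.69, 1.28 and 1.38. The make-up of the sum differed more than its ratio to the heavy chain. *Slc7a7* and *Slc7a8* gave 78.4% of it in endoderm against 9.25% in mesoderm and 20.4% in epiblast, and *Slc7a5* and *Slc7a6* gave 21.4%, 89.5% and 78.5%. These are levels of RNA and were not tested.

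**Figure D3:**
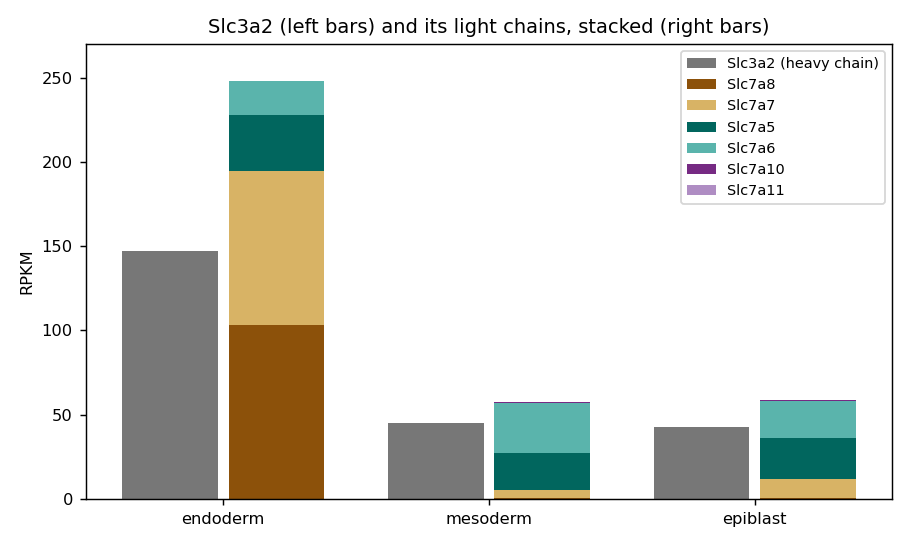
RPKM of *Slc3a2* (left bar of each pair) and of its 6 light chains, stacked (right bar), in the 3 libraries. In endoderm *Slc7a8* and *Slc7a7* make up most of a light chain sum of 248.3, whereas in mesoderm and epiblast *Slc7a5* and *Slc7a6* make up most of sums of 57.7 and 59.0.

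*Slc7a9*, the light chain of the cystine and cationic amino acid carrier of kidney and gut epithelium, lies on chromosome 7 (35448796 to 35466036, plus strand). It had 2577 reads in endoderm against 8 in mesoderm and 7 in epiblast, with RPKM values of 32.1, 0.102 and 0.0850. Endoderm was 316-fold higher than mesoderm (160.1 to 733) and 377-fold higher than epiblast (183 to 940.0), with bounds this wide because the lower libraries had so few reads. Its heavy chain partner did not share the pattern. The heavy chain *Slc3a1* had 8 reads in endoderm and 12 and 17 in mesoderm and epiblast, an RPKM of at most 0.173, and its exons overlap those of *Prepl*, which had 1460 to 1917 reads per library. In endoderm the RPKM of *Slc7a9* was 385 times that of *Slc3a1*, whereas the same ratio, from at most 17 reads a gene, was 0.797 in mesoderm and 0.492 in epiblast. No read was found for *Slc7a13*, the other light chain of Slc3a1.

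*Slc43a2* (LAT4), a facilitative carrier of large neutral amino acids, was the other endoderm gene, beside *Slc7a8* and *Slc7a9*, with more than a 10-fold difference from both libraries. It lies on chromosome 11 (75531694 to 75577575, plus strand) and had an RPKM of 19.1 in endoderm against 0.918 in mesoderm and 1.52 in epiblast. The fold was 20.8 over mesoderm (18.4 to 23.6) and 12.6 over epiblast (11.5 to 13.9). Its relative *Slc43a1* (LAT3) had the opposite order, with 4.70 in the endoderm library, 10.4 in mesoderm and 7.96 in epiblast, and was called 2.22-fold higher in mesoderm than in endoderm (1.99 to 2.47). *Slc43a3*, a nucleobase carrier with no known amino acid substrate, was not called and had 5.14, 5.39 and 3.52, where the direction between endoderm and mesoderm turned round with the median of ratios and with TMM scaling.

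The other 4 endoderm genes include proteins of the lysosome. *Slc38a7* (SNAT7), which exports glutamine and asparagine from lysosomes, had an RPKM of 30.4 in endoderm against 11.2 in mesoderm and 9.58 in epiblast, 2.72-fold (2.56 to 2.88) and 3.17-fold (2.98 to 3.37) higher in endoderm. *Slc38a9*, the lysosomal arginine sensor that signals to mTORC1, had 7.86, 1.40 and 1.70, which is 5.62-fold (5.11 to 6.19) and 4.62-fold (4.24 to 5.04) higher in endoderm. Neither call of *Slc38a9* was kept when RPKM>10 was required.

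*Slc36a1* (PAT1), a proton-coupled carrier of small amino acids found on lysosomes and on the brush border of the gut, had an RPKM of 10.1 in endoderm against 3.42 in mesoderm and 2.90 in epiblast. The endoderm value was 2.96-fold (2.73 to 3.23) and 3.49-fold (3.19 to 3.81) higher. *Slc38a6* had 23.4, 3.62 and 2.22, which is 6.48-fold over mesoderm (5.86 to 7.19) and 10.5-fold over epiblast (9.32 to 12.0). All 9 endoderm genes had their high value in the library that also held the visceral endoderm markers, 8 of 8 of which were highest there with summed RPKM values of 6106, 4.82 and 4.25 in endoderm, mesoderm and epiblast. From the extra-embryonic ectoderm and trophoblast list, *Esx1* and *Plac1* were highest there too, with 478 and 886 reads, as was *Gcm1* with 15. In contrast, *Elf5* (10, 12 and 31 reads in endoderm, mesoderm and epiblast), *Ascl2* (18, 74 and 112) and *Hand1* were lowest there. The part of visceral endoderm or trophoblast cells in these values was not tested.

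Promoter windows were read for the 9 endoderm genes. The 250 bases before a RefSeq transcription start on GRCm38.p6 are shown for the heavy chain and a light chain that share the endoderm pattern and for the 3 endoderm genes whose window held one of the 3 motifs searched on both strands, with the match in capitals. The motifs were TGATGNAA, the core of the C/EBP-ATF amino acid response element, TGACNNNGC, the core of the antioxidant response element, and CACGTG, the E-box bound by many helix-loop-helix factors. The first window of *Slc7a7* and a further window from a nearby start (match 243 bases before it) held TGATGNAA, and *Slc38a7* and *Slc36a1* held the E-box.
Slc3a2, chr19:8713898-8714147, minus strand: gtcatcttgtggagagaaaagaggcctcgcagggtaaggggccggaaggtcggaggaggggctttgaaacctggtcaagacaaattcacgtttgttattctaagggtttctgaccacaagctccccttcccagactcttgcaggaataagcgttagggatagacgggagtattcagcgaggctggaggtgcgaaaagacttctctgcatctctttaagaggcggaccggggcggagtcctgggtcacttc
Slc7a8, chr14:54781887-54782136, minus strand: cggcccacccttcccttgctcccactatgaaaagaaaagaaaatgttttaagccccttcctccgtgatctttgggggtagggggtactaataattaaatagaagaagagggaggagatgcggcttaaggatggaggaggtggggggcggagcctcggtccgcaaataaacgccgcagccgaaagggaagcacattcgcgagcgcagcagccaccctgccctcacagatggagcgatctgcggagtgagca
Slc7a7, chr14:54417945-54418194, minus strand: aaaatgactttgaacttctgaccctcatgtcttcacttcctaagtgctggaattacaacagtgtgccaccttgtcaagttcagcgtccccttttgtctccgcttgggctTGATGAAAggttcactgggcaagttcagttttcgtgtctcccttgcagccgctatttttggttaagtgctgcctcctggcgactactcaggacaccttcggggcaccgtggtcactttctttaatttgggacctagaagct
Slc38a7, chr8:95853492-95853741, minus strand: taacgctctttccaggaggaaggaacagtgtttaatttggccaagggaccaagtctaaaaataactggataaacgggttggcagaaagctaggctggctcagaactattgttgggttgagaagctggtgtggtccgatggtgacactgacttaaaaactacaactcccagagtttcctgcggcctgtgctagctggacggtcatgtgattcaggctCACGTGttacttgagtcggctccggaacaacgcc
Slc36a1, chr11:55204090-55204339, plus strand: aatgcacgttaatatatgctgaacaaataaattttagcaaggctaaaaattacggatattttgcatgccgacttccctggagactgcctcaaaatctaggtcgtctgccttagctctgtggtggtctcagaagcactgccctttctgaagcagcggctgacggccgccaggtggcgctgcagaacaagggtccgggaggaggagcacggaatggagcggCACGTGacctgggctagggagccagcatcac

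The match lies 141 bases before the start in *Slc7a7*, 34 in *Slc38a7* and 31 in *Slc36a1*. Windows were held for 42 of the 60 annotated genes of these families. In the 250 bases before a start, TGATGNAA was found for 3 of the 42 (*Slc6a21*, *Slc7a7* and *Slc7a11*) and for 3.91% of 27025 genes. TGACNNNGC was found for 8 of the 42, *Slc38a2* and *Slc43a1* among them, and for 11.5% of all genes, and CACGTG for 9, with *Slc36a1* and *Slc38a7* among them, and for 6.86%. A match is a description of letters and not a bound site, and the windows of *Slc3a2*, *Slc7a8*, *Slc7a9*, *Slc43a2*, *Slc38a6* and *Slc38a9* held none of the 3.

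*Slc7a3* (CAT3), a carrier of arginine and lysine, showed the clearest epiblast pattern and lies on chromosome X (101079210 to 101086020, minus strand). It had 71 reads in endoderm and 131 and 3256 in mesoderm and epiblast, with RPKM values of 0.719, 1.35 and 32.2. Epiblast was 44.7-fold higher than endoderm (35.4 to 57.4) and 23.8-fold higher than mesoderm (20.0 to 28.5). The 1.88-fold difference between mesoderm and endoderm lay below RPKM>5 and was not called.

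The other CATs had no such pattern. *Slc7a1* (CAT1), the widely expressed arginine carrier, had an RPKM of 2.26 in the endoderm library, 3.08 in mesoderm and 2.08 in epiblast, and *Slc7a2* (CAT2) had at most 0.320. The summed RPKM of the 3 CATs was 3.09 in endoderm and 4.75 and 34.4 in mesoderm and epiblast, with 23.3%, 28.4% and 93.6% from *Slc7a3*. In endoderm and mesoderm *Slc7a1* gave most of this smaller sum, at 73.2% and 64.8%. Cationic amino acids are also substrates of *Slc7a7*, *Slc7a9* and *Slc7a6*, whose RPKM in endoderm was far above that of any CAT there.

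*Slc1a3*, a glutamate and aspartate carrier best known from glia, lies on chromosome 15 (8634124 to 8710764, minus strand). It had an RPKM of 1.12 in the endoderm library, 2.03 in mesoderm and 8.15 in epiblast. Epiblast was 7.30-fold higher than endoderm (6.29 to 8.52) and 4.01-fold higher than mesoderm (3.57 to 4.52), and both pairs met the criteria, though not when RPKM>10 was required. It was the only *Slc1* glutamate carrier above an RPKM of 5, since *Slc1a1*, *Slc1a2*, *Slc1a6* and *Slc1a7* reached at most 1.09.

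Among the carriers of glutamine and other neutral amino acids at the plasma membrane, *Slc1a5*, *Slc38a1* and *Slc38a2* had a lower RPKM in endoderm than in the other libraries. *Slc1a5* (ASCT2), a sodium-dependent glutamine exchanger on chromosome 7 (16781340 to 16798274, plus strand), had an RPKM of 10.7 in endoderm and 18.9 and 28.7 in mesoderm and epiblast. Epiblast was called 2.69-fold higher than endoderm (2.52 to 2.87), and the 1.77-fold and 1.52-fold differences of mesoderm from endoderm and from epiblast did not reach Fold Change>2.

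*Slc38a1* (SNAT1), a glutamine carrier on chromosome 15 (96571418 to 96642913, minus strand), had the same order, with an RPKM of 11.3 in the endoderm library, 24.1 in mesoderm and 38.9 in epiblast. It was called 3.45-fold higher in epiblast (3.33 to 3.58) and 2.13-fold higher in mesoderm (2.05 to 2.22) than in endoderm. *Slc38a2* (SNAT2) carries alanine and glutamine, is known to be induced by amino acid shortage and lies 44.5 kb away. It had 28.4 in endoderm and 59.3 and 55.5 in mesoderm and epiblast. It was called 2.09-fold higher in mesoderm than in endoderm (2.02 to 2.16), while the 1.95-fold difference of epiblast from endoderm (1.89 to 2.02) was not called. Scaling by the median of ratios moved the log2 ratios of endoderm to mesoderm from -1.09 to -0.98 for *Slc38a1* and from -1.06 to -0.95 for *Slc38a2*, and neither was then called in that pair.

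Together *Slc1a5*, *Slc38a1* and *Slc38a2* had a summed RPKM of 50.4 in the endoderm library, 102.3 in mesoderm and 123.2 in epiblast. *Slc1a4* (ASCT1), an exchanger of small neutral amino acids such as serine, had the same order of libraries with 3.94, 7.06 and 7.44 and was not called in any pair. *Slc38a10*, a carrier of glutamine and glutamate, had 29.3, 21.6 and 21.1 and was not called either, and its order between mesoderm and epiblast was reversed by upper quartile scaling.

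Mesoderm was highest by the criteria for a single transporter gene, *Slc6a6*, which encodes the taurine carrier and lies on chromosome 6 (91684053 to 91759066, plus strand). Its RPKM was 44.9 in mesoderm, 20.4 in endoderm and 18.8 in epiblast. Mesoderm was 2.20-fold higher than endoderm (2.13 to 2.28) and 2.39-fold higher than epiblast (2.31 to 2.47). Neither call was kept with Fold Change>4, or in edgeR's exact test with a coefficient of variation of 0.2 or 0.4. Endoderm and epiblast differed by 1.09-fold, in a direction that was reversed by upper quartile scaling. *Slc6a8*, the creatine carrier, was also highest in mesoderm with an RPKM of 9.68, against 6.78 in endoderm and 5.63 in epiblast, and was not called, with folds of 1.43 (1.32 to 1.54) and 1.72 (1.58 to 1.86).

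Of the other 14 *Slc6* genes, which carry neurotransmitters, glycine, proline and neutral amino acids, none reached RPKM>5. *Slc6a4*, the serotonin carrier, had the most reads of them in a single library, with 353 in endoderm against 16 in mesoderm and 0 in epiblast, and an RPKM of 3.09 in endoderm. It was 21.6-fold higher in endoderm than in mesoderm (13.1 to 38.3) and at least 120.6-fold higher than in epiblast, computed against 3 reads, and it lay below the RPKM criterion in both pairs. The kidney and gut carriers of neutral amino acids were nearly silent in all libraries, with 38, 1 and 2 reads for *Slc6a18* and 8, 0 and 4 for *Slc6a19*. These *Slc6* genes were singled out after their values were seen.

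**Figure D4:**
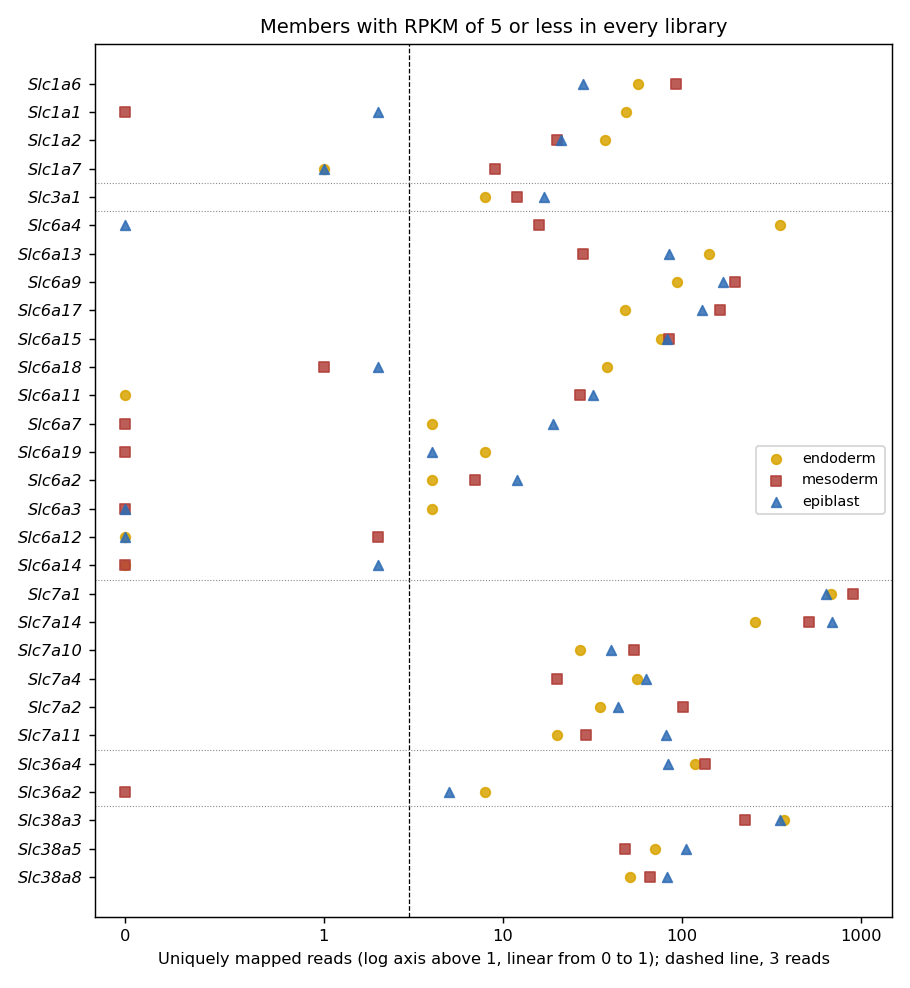
Uniquely mapped reads (log axis above 1, linear from 0 to 1) of 29 of the 30 transporter genes with an RPKM of 5 or less in every library, by germ layer library, with dotted lines between families and a dashed line at the 3 reads that a count of 0 allows. *Slc6a4* had 353 reads in endoderm and 0 in epiblast, and *Slc7a1* had 640 to 906 reads per library.

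Among the genes with low levels, *Slc1a1*, a glutamate carrier of kidney and neurons, had 49 reads in endoderm against 0 in mesoderm and 2 in epiblast. Its exons overlap those of *4430402I18Rik* on the opposite strand, which had 43, 0 and 8 reads, and the sources used here do not state whether strand was used in counting. *Slc7a14*, which encodes a CAT-like protein of the lysosome, had 257, 510 and 690 reads, but they covered 19.6%, 21.2% and 51.5% of its length, where genes with a like number of reads per kilobase had a median coverage of 76.5%, 86.8% and 90.8%. At this coverage the reads lay on part of the annotated gene. *Slc38a3* (SNAT3), a glutamine and histidine carrier of liver and kidney, had 372, 225 and 353 reads and an RPKM of 3.41, 2.10 and 3.15.

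By family, the summed RPKM of the genes counted was highest in endoderm for 5 of the 7 families, in mesoderm for *Slc6* and in epiblast for *Slc1*. *Slc7* genes summed to 284.6 in endoderm against 64.1 in mesoderm and 95.7 in epiblast, led by *Slc7a8* in endoderm (36.2% of the sum), *Slc7a6* in mesoderm (46.2%) and *Slc7a3* in epiblast (33.6%). *Slc3* genes summed to 147.3, 45.3 and 42.97, at least 99.6% of it from *Slc3a2*. *Slc38* genes had nearly level sums, 135.5, 124.6 and 134.3, although 5 of the 9 were called in some pair, against 16.3% of all genes. Of these, 3 were higher in endoderm and 2 lower there, *Slc38a1* against both libraries and *Slc38a2* against mesoderm only. Both calls against mesoderm were lost with median of ratios and TMM scaling. After scaling to the same upper quartile this family was highest in epiblast.

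*Slc1* genes summed to 16.8 in the endoderm library, 29.2 in mesoderm and 44.7 in epiblast, with 63.6% to 64.7% from *Slc1a5* in each library. *Slc6* genes summed to 33.6, 58.0 and 28.4, with *Slc6a6* giving 60.7%, 77.5% and 66.2%. *Slc36* genes summed to 11.7, 5.12 and 3.97, and *Slc43* genes to 29.0, 16.7 and 13.0. Over all 52 genes the sum was 658.4 in endoderm against 343.0 in mesoderm and 363.0 in epiblast, and the leading gene was *Slc3a2* in endoderm and *Slc38a2* in both other libraries.

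**Figure D5:**
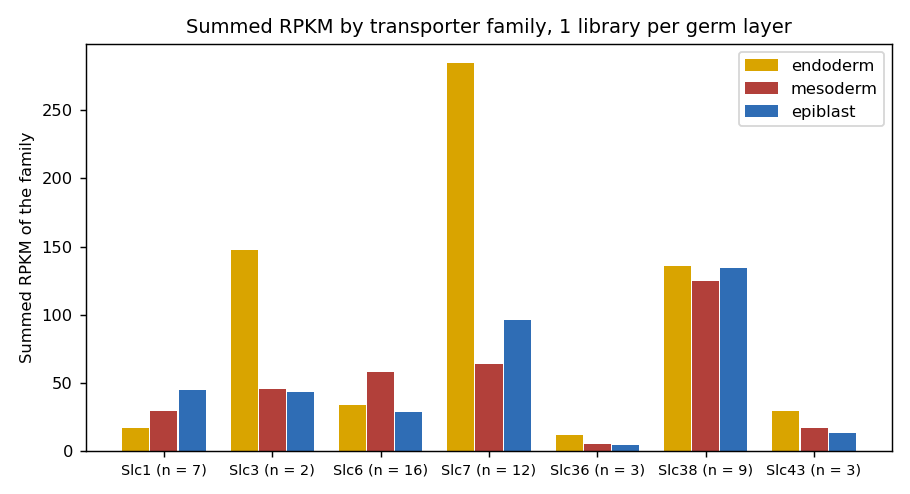
Summed RPKM of the transporter genes of each family in the endoderm, mesoderm and epiblast libraries, with 1 library per bar and therefore no error bars. The *Slc7* sum is 284.6 in endoderm against 64.1 and 95.7, and the *Slc38* sums lie between 124.6 and 135.5.

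Close neighbours on a chromosome did not always share a pattern. *Slc7a7* and *Slc7a8* were both highest in endoderm, whereas *Slc38a1* was highest in epiblast and *Slc38a2* in mesoderm. *Slc36a1* and *Slc36a2* lie 19.3 kb apart, and *Slc36a2* had 8 reads in endoderm against 0 in mesoderm and 5 in epiblast, against 2228, 737 and 655 for *Slc36a1*. *Slc43a1* and *Slc43a3*, 73 kb apart, were both highest in mesoderm, but *Slc43a1* alone was called.

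Other genes of amino acid handling were taken as lists and are given by their calls. Of all genes 16.3% were called in at least 1 pair, with 7.44% higher in endoderm than in mesoderm and 4.41% lower, 8.02% higher in endoderm than in epiblast and 4.58% lower, and 2.45% higher in epiblast than in mesoderm. Of 25 other amino acid and peptide carriers, 7 were called in at least 1 pair (against 16.3% of all genes), 6 higher in endoderm than in mesoderm, 7 higher in endoderm than in epiblast and 0 between mesoderm and epiblast. The median log2 ratio of endoderm was 0.38 to mesoderm and 0.34 to epiblast, against -0.11 over all genes in both comparisons. *Mfsd12*, a cysteine carrier of lysosomes and melanosomes, had an RPKM of 35.0 in endoderm against 2.68 in mesoderm and 0.963 in epiblast. *Slc16a10*, a carrier of aromatic amino acids, had 18.3, 1.20 and 2.34.

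For the amino acid response and the synthesis of serine and asparagine, 7 of 22 genes were called (against 16.3% of all genes), 4 of them higher in endoderm than in mesoderm and 1 lower, 2 higher in endoderm than in epiblast and 3 lower, and 2 higher in epiblast than in mesoderm. *Psph*, the last enzyme of serine synthesis, had an RPKM of 72.8 in endoderm against 16.1 in mesoderm and 15.9 in epiblast, and *Phgdh*, the first enzyme, had 195.2, 48.1 and 100.4. Genes of amino acid sensing by mTORC1 went both ways. Of 31 listed, 30 had a read and 6 were called, a share near the 16.3% of all genes with reads. The GTPase genes *Rragb* and *Rragd* were highest in epiblast, with 3.06, 8.25 and 23.0 for *Rragb* and 4.15, 16.3 and 30.6 for *Rragd* in endoderm, mesoderm and epiblast. The GTPase gene *Rragc* (33.6, 12.0 and 9.25) and the arginine sensor gene *Castor2* (listed as *Gatsl2*, 22.8, 3.71 and 13.8) were highest in endoderm. None of 20 cytosolic aminoacyl-tRNA synthetase genes was called, and 1 of 9 glutathione synthesis genes was, where 16.3% of all genes were. That gene was *Cbs*, with 1.34, 1.81 and 10.2.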

How the data were processed

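Each library came from the RNA of 1 germ layer pooled over embryos, sequenced with paired-end reads. The authors deposited, per gene, the uniquely mapped read count, the gene's length, the coverage as a percent of that length, and RPKM. The deposited RPKM equalled reads per kilobase, scaled to the library's reads on genes. The submitters' processing notes name TopHat, mm10 and mm9, and the aligner, annotation and counting program of the gene table, and its use of strand, are not given in the sources used here. Reads of near-identical genes are in part left out by unique mapping.

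Genes were matched by symbol. Of those with a matching symbol, 1 was left out and another was counted but is not reported by name or plotted here. Members and gene lists were chosen with earlier results of these data known. The criteria of the study (RPKM>5 in 1 or both libraries, Fold Change>2 and an FDR under 0.001) were applied to all genes in each pair of libraries, with Audic and Claverie's two-sided exact test of the counts and Benjamini-Hochberg adjustment. With 1 library per layer, the quasi-likelihood test of edgeR could not be fitted. Folds are RPKM ratios with exact (Clopper-Pearson) 95% intervals for the reads, and a fold against 0 reads was computed against 3. Genes were named if RPKM exceeded 5 in any library, if called in any pair or if a subunit partner of such a gene, and from each further list the 2 called genes with the largest fold. Genes named outside this rule were chosen after their values were seen.

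Alternatives were RPKM>1, RPKM>10 or no RPKM floor, Fold Change>4, no FDR criterion, Benjamini-Yekutieli adjustment, RPKM+1 in the fold, scaling by the median of ratios, TMM or the upper quartile, and the exact test of edgeR with the biological coefficient of variation assumed to be 0.2 or 0.4. Positions are from GENCODE M21 (GRCm38) and promoters from RefSeq (GRCm38.p6). The software was R 4.3.3 with edgeR 4.0.16, and Python 3.11.15 with matplotlib 3.10.9, SciPy 1.17.1, numpy 2.4.6 and pandas 2.3.3.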

Additional observations from a re-analysis of the deposited data

How the results depend on the processing

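No paired analysis was possible because each germ layer has 1 library, and no library could be left out for the same reason. All 30 calls were kept with RPKM>1, without an RPKM floor, without the FDR criterion, with Benjamini-Yekutieli adjustment, with RPKM+1 and after upper quartile scaling. RPKM>10 kept 26, Fold Change>4 16, and the median of ratios and TMM 28 each. Without an RPKM floor the transporter genes called numbered 23 for endoderm and mesoderm, 21 for endoderm and epiblast, 13 for mesoderm and epiblast and 31 in any pair, with 2 highest in mesoderm and 4 in epiblast, where 27.2%, 28.1% and 16.2% of all genes were called in the 3 pairs. Fold Change>4 gave 6, 8, 2 and 8, with 0 highest in mesoderm (5.44%, 5.20% and 1.95% of all genes). A coefficient of variation of 0.2 gave 7 between endoderm and mesoderm and 2 between mesoderm and epiblast (6.97% and 2.59% of all genes), with 0 highest in mesoderm, and 0.4 gave 4, 3, 1 and 5, with 2 highest in endoderm, 1 in epiblast and 0 in mesoderm (2.25%, 1.92% and 0.351% of all genes). RPKM>10 left 1 gene highest in epiblast. For the counts in any pair or highest in a layer, no share of all genes is given at these settings. Whether those counts are special to transporter genes can therefore not be read from them. The changes follow from the stricter or looser criterion itself.

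Relative to the deposited RPKM, the median of ratios moved every log2 ratio of endoderm to mesoderm by 0.11 and to epiblast by 0.11, and the upper quartile by -0.07 and -0.13. Uncalled ratios changed sign for *Slc43a3* between endoderm and mesoderm (0.047 with the median of ratios, 0.0463 with TMM), *Slc6a6* between endoderm and epiblast (-0.0144, upper quartile) and *Slc38a10* between mesoderm and epiblast (-0.0283, upper quartile). Upper quartile scaling also put 2 families, *Slc1* and *Slc38*, highest in epiblast and added calls of *Slc1a4* and *Slc38a2* between endoderm and epiblast. Genes with few reads limit the precision, as the intervals of *Slc7a9* show.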

Other observations

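Of the genes whose symbols only resemble those counted, *Slc6a20b*, a relative of the kidney and gut carriers of proline and other imino acids, had 286 reads in endoderm against 2 in each of mesoderm and epiblast, and an RPKM of 2.09 in endoderm. It was 140.2-fold higher in endoderm than in mesoderm (95% counting interval 38.5 to 1164) and 146.6-fold higher than in epiblast (40.2 to 1216), below RPKM>5 in every library. *Slc7a6os*, which is not a transporter and is named for its place on the strand opposite *Slc7a6*, had an RPKM of 16.4 in endoderm, 14.7 in epiblast and 22.0 in mesoderm.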
